A study of Mus musculus with 6 samples.

Results

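The genes described here are 43 genes that cells switch on in response to type I interferon, the antiviral cytokines interferon alpha and beta. They were given as a list of mouse gene symbols, and all 43 have a column in the deposited tables, among 20882 gene columns. Their transcripts were counted in single CD45+ cells, the leukocytes, sorted alive from the lungs of mice 6 to 8 weeks old with a humanized PD-1, a receptor that restrains T cells once they are activated. Mice of both groups carried that humanized receptor. The mice had been treated with an isotype control or with a PD-1 agonist, and the title of the study concerns neutrophilic asthma and T cells. A column of the deposited tables calls the isotype group untreated, while the sample labels give the isotype control. The labels state that 3 samples of each group were mixed by cell hashing, at about 50000 cells a group. No source used here gives how the receptor was humanized, how asthma was induced or the dose of the agonist.

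Type I interferons bind a receptor of the subunits IFNAR1 and IFNAR2, whose kinases JAK1 and TYK2 phosphorylate transcription factors, STAT2 among them. With IRF9, STAT2 takes part in a complex that binds the interferon-stimulated response element in gene promoters. The induced products sense viral RNA and DNA, degrade or sequester viral RNA, restrict virus release and regulate the response itself. In the lung, plasmacytoid dendritic cells are known as strong producers of interferon alpha, and most leukocytes can respond to it.

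Each treatment had 3 tables, labelled as mouse 1 to 3, with 6393 to 6749 cell records and 21556544 to 29749816 counts each. Any 2 tables of a treatment shared 2373 to 2736 cell barcodes, against 3 to 13 between treatments, so a treatment was taken as 1 pooled sample with each barcode used once. After filters, 10299 isotype and 11183 agonist cells remained, with medians of 2535 and 2215 counts per cell. With 1 sample per treatment there is no test, no value has a replicate check, and the treatment cannot be told apart from the library. Levels are given in CPM, a gene's counts scaled to the total of a class in a library. Paired values are given as isotype and then agonist. Ratios are log2 of agonist over isotype, with exact Clopper-Pearson 95% intervals in parentheses, and intervals of levels are exact Poisson. Both cover counting error only. A gene entered a comparison of treatments in a class where it had at least 50 counts over both libraries. A level in a class is summed over its cells, so fewer expressing cells and less RNA per cell cannot be told apart in it.

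Clusters of cells were made without these genes and named from marker genes, which gave 13 classes: neutrophil-like (1955 and 2373 cells), T cell-like (2358 and 2229), B cell-like (1820 and 2133), NK cell-like (1220 and 1318), interstitial macrophage-like (968 and 872), nonclassical monocyte-like (494 and 595), classical monocyte-like (391 and 419), conventional dendritic cell-like (361 and 425), plasmacytoid dendritic cell-like (123 and 167), migratory dendritic cell-like (131 and 138), basophil-like (117 and 143), type 2 innate lymphoid cell-like (68 and 61) and alveolar macrophage-like (37 and 33). They are called by the cell type alone below. A further 256 and 277 cells stayed unnamed. Ptprc, the gene of CD45, was detected in every class, at 482 and 517 CPM in migratory dendritic cells up to 3084 and 3196 in NK cells. The leading genes went with the names, such as Retnlg and S100a9 in neutrophils, C1qa and C1qb in interstitial macrophages and Siglech in plasmacytoid dendritic cells. In the small classes a gene at 0 counts allows a level of up to 9.43 and 11.5 CPM in alveolar macrophages, 8.84 and 7.35 in basophils, 12.4 and 12.1 in type 2 innate lymphoid cells, 4.84 and 4.04 in plasmacytoid and 3.91 and 3.69 in migratory dendritic cells, at 3 counts per library.

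The element that the complex with STAT2 and IRF9 binds could be seen in the promoters. RefSeq promoter windows of the GRCm38.p6 build, 250 bases before to 50 after a gene's start, were at hand for 33 of the 43 genes, and Dhx58, Zbp1, Usp18, Oas2, Mx1, Mx2, Ifi27l2a, Rtp4, Ifi204 and Parp14 were missing. Its core, searched as GAAA, any 2 bases and GAAA again on both strands with overlapping matches allowed, was present in 18 of the 33 (54.5%), against 3.99% of all 27025 genes in the table and 4.06% of the 9870 genes with at least 50 counts in these cells. The longer spelling, with CT after the second GAAA, was in 9 of 33 (27.3%) against 0.303% of all genes. The stretches below are from genes with a match. They were picked to show genes high in neutrophils (Isg15, Ifit1 and Rsad2), the near-identical pairs discussed later, and Bst2, which was highest in plasmacytoid dendritic cells. They are written 5′ to 3′ on the gene's strand, with every match to the core in capitals, as GAAA repeats or, on the other strand, TTTC repeats.
Isg15: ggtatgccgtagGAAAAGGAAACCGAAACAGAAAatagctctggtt
Ifit1: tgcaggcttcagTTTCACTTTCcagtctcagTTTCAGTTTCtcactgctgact
Ifit3: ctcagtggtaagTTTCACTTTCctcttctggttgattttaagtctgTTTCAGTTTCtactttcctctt
Ifit3b: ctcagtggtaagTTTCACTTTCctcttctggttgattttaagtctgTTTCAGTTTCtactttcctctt
Oas1a: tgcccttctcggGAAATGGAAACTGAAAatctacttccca
Oas1g: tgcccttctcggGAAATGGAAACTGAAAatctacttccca
Bst2: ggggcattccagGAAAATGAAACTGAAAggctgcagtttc
Rsad2: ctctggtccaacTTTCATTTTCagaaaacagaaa

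The Isg15 stretch (chr4:156200863-156200908, reverse strand) holds 3 overlapping matches, the first 78 bases before the start. That of Ifit1 (chr19:34640773-34640825, forward strand) holds 2 matches on the opposite strand. Ifit3 (chr19:34583361-34583428, forward strand) and Ifit3b (chr19:34607757-34607824, forward strand) share the same 68 bases, with 2 matches. Oas1a (chr5:120907518-120907557, reverse strand) and Oas1g (chr5:120887604-120887643, reverse strand) also share the same 40 bases, with 2 overlapping matches, 20 and 18 bases before their starts. The Bst2 stretch (chr8:71537575-71537614, reverse strand) holds 2 overlapping matches, and that of Rsad2 (chr12:26456551-26456584, reverse strand) 1. A match is a stretch of letters and not a measured binding site.

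Across cell types, as a share of the counts of a class, the genes were highest in neutrophils and monocytes. The neutrophil clusters led by Retnlg and by Il1a had medians of 1515 and 1586.5 counts per cell. The medians were 5452.5 in classical monocytes and 5855.5 in interstitial macrophages, so a ranking by counts per cell need not be the same. All 43 together summed to 11447 and 9649 CPM in neutrophils and to 11556 and 10562 CPM in classical monocytes. In classical monocytes, Ifi27l2a (3284 and 3176 CPM) and Samhd1 (2269 and 2065 CPM) made up much of that sum. A core of 21 genes, such as the Ifit, Oas and Mx genes, Isg15, Rsad2 and Usp18, summed to 5576 and 4409 CPM in neutrophils, 2957 and 2249.8 CPM in nonclassical monocytes, 2280.3 and 1981 CPM in classical monocytes and 1913 and 1557 CPM in interstitial macrophages. The place of nonclassical monocytes rested on 1 of their 2 clusters, at 3891 and 3711 CPM, which also held neutrophil transcripts, while the other was at 1394 and 1134 CPM, below classical monocytes and interstitial macrophages. The sum was 1325 and 1182 CPM in conventional dendritic cells, 849 and 969 CPM in plasmacytoid dendritic cells, 808 and 803 CPM in basophils, 762 and 712 CPM in migratory dendritic cells and 729 and 777 CPM in alveolar macrophages. Lymphoid classes were lowest, with 677 and 655 CPM in T cells, 514 and 575 CPM in type 2 innate lymphoid cells, 318 and 276 CPM in B cells and 263 and 279.9 CPM in NK cells. The intervals of B and NK cells overlapped in the agonist library (260.0 to 293 and 264 to 297 CPM), as did those of plasmacytoid dendritic cells and basophils in the isotype library (778 to 925 and 715 to 909 CPM). Gene by gene, 23 of 43 were highest in neutrophils of the isotype library and 18 in those of the agonist library. Classical monocytes held the highest level of 12 and 11, and plasmacytoid dendritic cells of 3 and 4. The highest class was the same in both libraries for 34 of the 43 genes. In the heat map of levels, the Ifit genes, Rsad2, Oasl2, Isg15 and Rtp4 stand out in the neutrophil column, and Bst2 and Ifi44 in that of plasmacytoid dendritic cells.

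**Figure D1:**
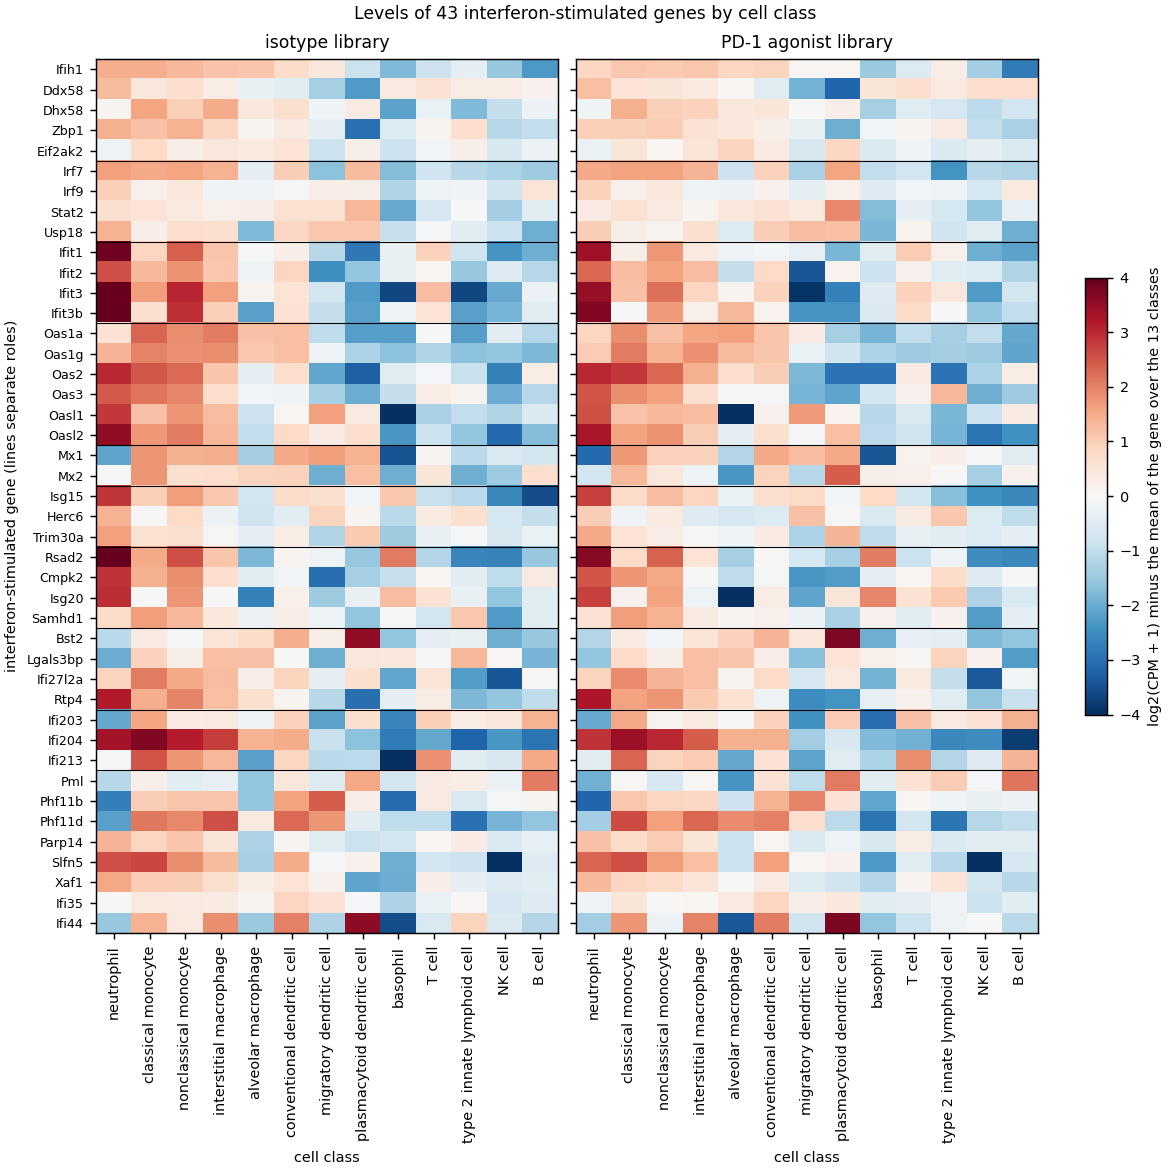
Each gene's level in 13 cell classes as log2(CPM + 1) minus its own mean over the classes, for the isotype library on the left and the PD-1 agonist library on the right. Rows are the 43 genes, ordered by role, and colours compare classes within a gene and not genes with each other. The highest class was neutrophils for 23 genes on the left and 18 on the right.

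The sensors of viral nucleic acid came first in this order. Ifih1, the gene of the long double-stranded RNA sensor MDA5, had 1707 and 1351 counts (46.2 and 38.0 CPM) over all kept cells. Ifih1 was highest in neutrophils of the isotype library (91.2 CPM) and interstitial macrophages of the agonist library (63.3 CPM), and lowest in B cells (5.82 CPM and 3.36 CPM). Ddx58, which encodes the RNA sensor RIG-I, had 2528 and 2306 counts (68.4 and 64.9 CPM). Ddx58 was highest in neutrophils of both libraries (122 and 102 CPM), and lowest in plasmacytoid dendritic cells (9.67 CPM and 4.04 CPM). Dhx58, the gene of their regulator LGP2, had 875 and 828 counts (23.7 and 23.3 CPM). Dhx58 was highest in classical monocytes of both libraries (50.9 and 55.1 CPM), and lowest in basophils (2.95 CPM and 7.35 CPM). Eif2ak2 encodes PKR, a kinase that stops translation when it binds double-stranded RNA, and had 1512 and 1348 counts (40.9 and 38.0 CPM). Eif2ak2 was highest in classical monocytes of the isotype library (68.4 CPM) and alveolar macrophages of the agonist library (69.2 CPM), and lowest in basophils (20.6 CPM) and migratory dendritic cells (23.4 CPM) respectively. Zbp1, which senses Z-form nucleic acid and can start cell death, had 6477 and 5085 counts (175 and 143 CPM). The levels of Zbp1 in CPM were 327 and 223 in neutrophils, 279 and 222 in classical monocytes, 324 and 231 in nonclassical monocytes, 216 and 169.9 in interstitial macrophages and 132 and 154 in alveolar macrophages. Zbp1 in dendritic cells and basophils was at 156 and 133 in conventional dendritic cells, 92.5 and 92.3 in migratory dendritic cells, 14.5 and 28.3 in plasmacytoid dendritic cells and 82.5 and 105 in basophils. In lymphoid classes, Zbp1 was at 133 and 122 in T cells, 56.3 and 56.8 in NK cells, 61.2 and 46.1 in B cells and 195 and 145 in type 2 innate lymphoid cells. Zbp1 was thus nearly equal in neutrophils and nonclassical monocytes and lowest in plasmacytoid dendritic cells.

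Of the genes of signalling and transcription, Irf7 encodes the factor that amplifies interferon alpha production and had 5788 and 5132 counts (157 and 145 CPM). The levels of Irf7 in CPM were 313 and 256.2 in neutrophils, 287 and 272 in classical monocytes, 299 and 276 in nonclassical monocytes, 261 and 228 in interstitial macrophages and 75.5 and 50.01 in alveolar macrophages. Irf7 in dendritic cells and basophils was at 197 and 171 in conventional dendritic cells, 31.3 and 35.7 in migratory dendritic cells, 239 and 267 in plasmacytoid dendritic cells and 29.5 and 44.1 in basophils. In lymphoid classes, Irf7 was at 56.4 and 52.3 in T cells, 41.0 and 40.4 in NK cells, 36.6 and 38.5 in B cells and 45.6 and 16.1 in type 2 innate lymphoid cells. Irf7 was at its highest in neutrophils, both monocyte classes, interstitial macrophages and plasmacytoid dendritic cells. Irf9, the DNA-binding part of the complex, had 3294 and 3141 counts (89.1 and 88.5 CPM). Irf9 was highest in neutrophils of both libraries (162 and 154 CPM), and lowest in basophils (35.4 CPM) and NK cells (49.5 CPM) respectively. Stat2, its partner, had 2341 and 2218 counts (63.3 and 62.5 CPM). Stat2 was highest in plasmacytoid dendritic cells of both libraries (161 and 229 CPM), and lowest in basophils (14.7 CPM and 17.1 CPM). Usp18, which removes ISG15 from proteins and dampens the receptor, had 1691 and 1394 counts (45.8 and 39.3 CPM). Usp18 was highest in neutrophils of the isotype library (91.0 CPM) and migratory dendritic cells of the agonist library (68.9 CPM), and lowest in B cells (8.03 CPM and 6.73 CPM).

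The IFIT family binds viral RNA and blocks its translation, and its members had their highest level in neutrophils. Ifit1 had 3342 and 2642 counts (90.4 and 74.4 CPM). Ifit1 was highest in neutrophils of both libraries (447 and 338 CPM), and lowest in plasmacytoid dendritic cells (3.22 CPM) and B cells (6.21 CPM) respectively. Ifit2 had 1863 and 1597 counts (50.4 and 45.0 CPM). Ifit2 was highest in neutrophils of both libraries (159 and 117 CPM), and lowest in migratory dendritic cells (3.91 CPM and 1.23 CPM). Each was above its level in nonclassical monocytes, the next class of the isotype library (159.9 CPM for Ifit1 and 92.4 for Ifit2). Ifit3 had 1856 and 1428 counts (50.2 and 40.2 CPM). Ifit3 was highest in neutrophils of both libraries (243 and 169.7 CPM), and lowest in 2 classes (0 counts) and migratory dendritic cells (0 counts) respectively. Ifit3b had 564 and 424 counts (15.3 and 11.9 CPM). Ifit3b was highest in neutrophils of both libraries (90.2 and 65.8 CPM), and lowest in 3 classes (0 counts) and 2 classes (0 counts) respectively. Ifit3 and Ifit3b share 61.8% and 55.5% of their transcript sequence with other genes, chiefly with each other, so the split of counts between them is uncertain.

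The OAS family makes the messenger that activates RNase L, which cuts viral and cellular RNA. Oas2 had 821 and 717 counts (22.2 and 20.2 CPM). Oas2 was highest in neutrophils of both libraries (76.4 and 61.8 CPM), and lowest in plasmacytoid dendritic cells (0 counts) and 3 classes (0 counts) respectively. Oas3 had 2830 and 2439 counts (76.6 and 68.7 CPM). Oas3 was highest in neutrophils of both libraries (229 and 221 CPM), and lowest in NK cells (9.66 CPM) and plasmacytoid dendritic cells (8.08 CPM) respectively. Both were highest in neutrophils, while Oas1a and Oas1g were highest in classical monocytes. Oas1a had 315 and 682 counts (8.52 and 19.2 CPM). Oas1a was highest in classical monocytes of both libraries (22.02 and 44.6 CPM), and lowest in 3 classes (0 counts) and B cells (2.07 CPM) respectively. Oas1g had 4481 and 3346 counts (121 and 94.2 CPM). Oas1g was highest in classical monocytes of both libraries (267 and 232 CPM), and lowest in B cells (18.6 CPM and 11.9 CPM). Oasl1 and Oasl2 are OAS-like proteins, Oasl1 known to limit Irf7 translation. Oasl1 had 1293 and 1209 counts (35.0 and 34.05 CPM). Oasl1 was highest in neutrophils of both libraries (128 and 103 CPM), and lowest in basophils (0 counts) and alveolar macrophages (0 counts) respectively. Oasl2 had 5934 and 4970 counts (161 and 140.0 CPM). The levels of Oasl2 in CPM were 742 and 599.8 in neutrophils, 212 and 189.9 in classical monocytes, 266 and 217 in nonclassical monocytes, 160.3 and 122 in interstitial macrophages and 31.4 and 46.2 in alveolar macrophages. Oasl2 in dendritic cells and basophils was at 109.8 and 96.7 in conventional dendritic cells, 78.1 and 57.8 in migratory dendritic cells, 103 and 144 in plasmacytoid dendritic cells and 11.8 and 29.4 in basophils. In lymphoid classes, Oasl2 was at 34.4 and 34.6 in T cells, 6.36 and 7.31 in NK cells, 18.3 and 10.6 in B cells and 20.7 and 16.1 in type 2 innate lymphoid cells. Oasl2 was over 2 times as high in neutrophils as in any other class of either library.

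The MX family are dynamin-like GTPases that trap virus particles, and both genes had few counts here. Mx1 had 614 and 515 counts (16.6 and 14.5 CPM). Mx1 was highest in classical monocytes of both libraries (36.2 and 35.1 CPM), and lowest in basophils (0 counts in each library). Mx2, which the gene annotation lists as a polymorphic pseudogene, had 167 and 170 counts (4.52 and 4.79 CPM). Mx2 was highest in classical monocytes of the isotype library (12.4 CPM) and plasmacytoid dendritic cells of the agonist library (25.6 CPM), and lowest in 3 classes (0 counts) and alveolar macrophages (0 counts) respectively. In neutrophils, where most core genes were at their highest, Mx1 had 6 and 1 counts (1.54 and 0.249 CPM). The ubiquitin-like modifier Isg15, which is attached to proteins during infection, had 8976 and 7475 counts (243 and 211 CPM). The levels of Isg15 in CPM were 962 and 806 in neutrophils, 256.0 and 205 in classical monocytes, 422 and 287 in nonclassical monocytes, 284 and 221 in interstitial macrophages and 78.6 and 100.01 in alveolar macrophages. Isg15 in dendritic cells and basophils was at 224 and 188 in conventional dendritic cells, 207 and 208 in migratory dendritic cells, 122 and 113 in plasmacytoid dendritic cells and 280.1 and 213 in basophils. In lymphoid classes, Isg15 was at 70.7 and 73.0 in T cells, 21.4 and 21.7 in NK cells, 10.5 and 19.4 in B cells and 62.2 and 36.2 in type 2 innate lymphoid cells. Isg15 was highest in neutrophils and lowest in B and NK cells. Herc6, which acts as the mouse ligase for it, had 2187 and 1868 counts (59.2 and 52.6 CPM). Of the Herc6 transcript sequence, 25.0% also occurs in Gm45193. Herc6 was highest in neutrophils of the isotype library (134 CPM) and migratory dendritic cells of the agonist library (113 CPM), and lowest in basophils (23.6 CPM) and B cells (24.1 CPM) respectively. Trim30a, a ubiquitin ligase that limits inflammatory signalling, had 9120 and 8357 counts (247 and 235 CPM). The levels of Trim30a in CPM were 642 and 569 in neutrophils, 312 and 289 in classical monocytes, 322 and 239 in nonclassical monocytes, 213 and 202 in interstitial macrophages and 160.3 and 177 in alveolar macrophages. Trim30a in dendritic cells and basophils was at 255 and 249 in conventional dendritic cells, 88.5 and 82.4 in migratory dendritic cells, 430.3 and 506 in plasmacytoid dendritic cells and 76.6 and 98.0 in basophils. In lymphoid classes, Trim30a was at 169 and 160.3 in T cells, 133 and 136 in NK cells, 171 and 151 in B cells and 195 and 149 in type 2 innate lymphoid cells. Trim30a was lowest in basophils and migratory dendritic cells.

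Among enzymes of nucleotides and nucleic acids, Rsad2 encodes viperin, which makes a chain-terminating nucleotide, and had 6721 and 5354 counts (182 and 151 CPM). The levels of Rsad2 in CPM were 1008 and 755 in neutrophils, 166 and 101 in classical monocytes, 346 and 308 in nonclassical monocytes, 124 and 87.1 in interstitial macrophages and 15.7 and 23.1 in alveolar macrophages. Rsad2 in dendritic cells and basophils was at 61.2 and 61.1 in conventional dendritic cells, 49.5 and 35.7 in migratory dendritic cells, 19.3 and 22.9 in plasmacytoid dendritic cells and 245 and 245 in basophils. In lymphoid classes, Rsad2 was at 24.7 and 32.3 in T cells, 8.01 and 9.74 in NK cells, 19.4 and 9.05 in B cells and 8.29 and 52.3 in type 2 innate lymphoid cells. Rsad2 was strongest in neutrophils, and after them in nonclassical monocytes and basophils. Cmpk2, a mitochondrial nucleotide kinase and the genomic neighbour of Rsad2 on chromosome 12, had 1318 and 1074 counts (35.7 and 30.2 CPM). Cmpk2 was highest in neutrophils of both libraries (135 and 98.9 CPM), and lowest in migratory dendritic cells (1.30 CPM and 2.46 CPM). Isg20, an RNA exonuclease, had 1795 and 1595 counts (48.6 and 44.9 CPM). Isg20 was highest in neutrophils of both libraries (207 and 169.7 CPM), and lowest in alveolar macrophages (3.14 CPM and 0 counts). Samhd1, which depletes the nucleotides that reverse transcription needs, had 29844 and 26965 counts (808 and 759 CPM). The levels of Samhd1 in CPM were 1189.8 and 975 in neutrophils, 2269 and 2065 in classical monocytes, 1736 and 1704 in nonclassical monocytes, 951 and 831 in interstitial macrophages and 597 and 708 in alveolar macrophages. Samhd1 in dendritic cells and basophils was at 856 and 740.5 in conventional dendritic cells, 615 and 557 in migratory dendritic cells, 237 and 265 in plasmacytoid dendritic cells and 693 and 727 in basophils. In lymphoid classes, Samhd1 was at 429 and 460.4 in T cells, 147 and 136 in NK cells, 517 and 501 in B cells and 1488 and 728 in type 2 innate lymphoid cells. Samhd1 was highest in classical monocytes.

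Of membrane and secreted products, Bst2 encodes tetherin, which holds budding virus at the cell surface, and had 11162 and 9879 counts (302 and 278 CPM). The levels of Bst2 in CPM were 122 and 97.4 in neutrophils, 334 and 276 in classical monocytes, 248 and 204 in nonclassical monocytes, 369.8 and 317 in interstitial macrophages and 428 and 415 in alveolar macrophages. Bst2 in dendritic cells and basophils was at 709.5 and 575 in conventional dendritic cells, 306 and 295 in migratory dendritic cells, 3062 and 2972 in plasmacytoid dendritic cells and 88.4 and 56.3 in basophils. In lymphoid classes, Bst2 was at 198 and 175 in T cells, 65.5 and 63.8 in NK cells, 89.5 and 74.0 in B cells and 211 and 173 in type 2 innate lymphoid cells. Bst2, also a surface marker of plasmacytoid dendritic cells, was over 4 times as high there as in the next class. Ifi27l2a, a small mitochondrial or nuclear membrane protein gene, had 47712 and 46840 counts (1291 and 1319 CPM) and so held the most counts of all 43. The levels of Ifi27l2a in CPM were 1455 and 1569 in neutrophils, 3284 and 3176 in classical monocytes, 2203 and 2163 in nonclassical monocytes, 1842 and 1965 in interstitial macrophages and 931 and 915 in alveolar macrophages. Ifi27l2a in dendritic cells and basophils was at 1449 and 1425 in conventional dendritic cells, 609 and 536 in migratory dendritic cells, 1212 and 1099.8 in plasmacytoid dendritic cells and 183 and 228 in basophils. In lymphoid classes, Ifi27l2a was at 1123 and 1102 in T cells, 71.4 and 81.1 in NK cells, 800.1 and 788 in B cells and 166 and 435 in type 2 innate lymphoid cells. Ifi27l2a was highest in classical monocytes and lowest in NK cells. Lgals3bp, a secreted glycoprotein, had 4190 and 3743 counts (113 and 105 CPM). Lgals3bp was highest in type 2 innate lymphoid cells of the isotype library (232 CPM) and interstitial macrophages of the agonist library (198 CPM), and lowest in neutrophils (22.8 CPM) and B cells (17.3 CPM) respectively. Rtp4, which traffics receptors and restricts viral RNA, had 3921 and 3268 counts (106 and 92.0 CPM). Rtp4 was highest in neutrophils of both libraries (423 and 381 CPM), and lowest in plasmacytoid dendritic cells (4.84 CPM) and migratory dendritic cells (6.15 CPM) respectively.

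The PYHIN genes of chromosome 1 encode DNA sensors and transcription regulators, and 20.7% of the transcript sequence of Ifi203, 46.0% of Ifi204 and 12.6% of Ifi213 also occurs in related genes, so the split of their counts is uncertain. Ifi203 had 9701 and 8620 counts (263 and 243 CPM). The levels of Ifi203 in CPM were 40.2 and 36.1 in neutrophils, 507 and 431 in classical monocytes, 211 and 165 in nonclassical monocytes, 217 and 189 in interstitial macrophages and 154 and 150.0 in alveolar macrophages. Ifi203 in dendritic cells and basophils was at 322 and 284 in conventional dendritic cells, 37.8 and 27.1 in migratory dendritic cells, 271 and 304 in plasmacytoid dendritic cells and 26.5 and 17.1 in basophils. In lymphoid classes, Ifi203 was at 329.6 and 335 in T cells, 231 and 223 in NK cells, 444 and 404 in B cells and 207 and 193 in type 2 innate lymphoid cells. Ifi203 was low in neutrophils and high in classical monocytes, B cells and T cells. Ifi204 had 7065 and 6449 counts (191 and 182 CPM). The levels of Ifi204 in CPM were 479.7 and 394 in neutrophils, 622 and 571 in classical monocytes, 425 and 437 in nonclassical monocytes, 325 and 290.3 in interstitial macrophages and 126 and 142 in alveolar macrophages. Ifi204 in dendritic cells and basophils was at 132 and 143 in conventional dendritic cells, 24.7 and 19.7 in migratory dendritic cells, 14.5 and 33.7 in plasmacytoid dendritic cells and 5.90 and 14.7 in basophils. In lymphoid classes, Ifi204 was at 10.7 and 13.2 in T cells, 8.48 and 8.53 in NK cells, 5.26 and 2.85 in B cells and 4.14 and 8.05 in type 2 innate lymphoid cells. Ifi204 was myeloid, and high in neutrophils where Ifi203 was not. Ifi213 had 1625 and 1450 counts (44.0 and 40.8 CPM). Ifi213 was highest in classical monocytes of both libraries (106 and 100.2 CPM), and lowest in basophils (0 counts) and migratory dendritic cells (3.69 CPM) respectively.

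The nuclear and other products had their highest levels in several different classes. Slfn5, a Schlafen family gene, had 8213 and 7362 counts (222 and 207 CPM). The levels of Slfn5 in CPM were 627 and 503 in neutrophils, 664 and 600.2 in classical monocytes, 379.8 and 317 in nonclassical monocytes, 250.3 and 232 in interstitial macrophages and 40.9 and 53.9 in alveolar macrophages. Slfn5 in dendritic cells and basophils was at 295 and 313 in conventional dendritic cells, 102 and 106 in migratory dendritic cells, 118 and 112 in plasmacytoid dendritic cells and 26.5 and 19.6 in basophils. In lymphoid classes, Slfn5 was at 60.6 and 71.5 in T cells, 3.53 and 4.39 in NK cells, 72.0 and 61.8 in B cells and 58.0 and 44.3 in type 2 innate lymphoid cells. Slfn5 was lowest in NK cells. Pml, which organises nuclear bodies, had 1404 and 1234 counts (38.0 and 34.8 CPM). Pml was highest in B cells of both libraries (126 and 109 CPM), and lowest in alveolar macrophages (9.43 CPM and 3.85 CPM). Phf11b had 3220 and 2619 counts (87.1 and 73.8 CPM). Phf11b was highest in migratory dendritic cells of both libraries (309.9 and 223 CPM), and lowest in basophils (5.90 CPM) and neutrophils (5.23 CPM) respectively. Phf11d had 627 and 557 counts (17.0 and 15.7 CPM). Phf11d was highest in interstitial macrophages of the isotype library (45.9 CPM) and classical monocytes of the agonist library (45.5 CPM), and lowest in type 2 innate lymphoid cells (0 counts) and 2 classes (0 counts) respectively. Of their transcript sequence, 62.9% of Phf11b and 17.1% of Phf11d also occurs in other genes, chiefly of the Phf11 family, so the split of their counts is uncertain. Added up, they were at 336 and 234 CPM in migratory dendritic cells and 8.46 and 7.23 CPM in neutrophils. In neutrophils Pml was at 13.3 and 5.48, Phf11b at 7.69 and 5.23 and Phf11d at 0.769 and 1.99 CPM, so these 3 genes were low where most others were high. Parp14, an ADP-ribosyl transferase, had 4260 and 3864 counts (115 and 109 CPM). Parp14 was highest in neutrophils of both libraries (229.9 and 190.1 CPM), and lowest in alveolar macrophages (37.7 CPM and 46.2 CPM). Xaf1, a gene linked to apoptosis, had 2032 and 2023 counts (54.98 and 57.0 CPM). Xaf1 was highest in neutrophils of both libraries (112 and 113 CPM), and lowest in plasmacytoid dendritic cells (8.06 CPM) and basophils (19.6 CPM) respectively. Ifi35 had 2452 and 2086 counts (66.3 and 58.7 CPM). Ifi35 was highest in conventional dendritic cells of both libraries (117 and 109 CPM), and lowest in basophils (26.5 CPM) and NK cells (32.2 CPM) respectively. Ifi44 had 713 and 680 counts (19.3 and 19.1 CPM). Ifi44 was highest in plasmacytoid dendritic cells of both libraries (139 and 141 CPM), and lowest in basophils (0 counts) and alveolar macrophages (0 counts) respectively. Ifi44 was the core gene with its highest level in plasmacytoid dendritic cells of both libraries.

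Between the treatments, most of the genes were lower in the agonist library by a small ratio. Over all CD45+ cells, 39 of 43 were lower and 4 higher, where 50.8% of all genes with at least 50 counts were lower and 49.2% higher. The median ratio was -0.12, against -0.0034 over all 15114 genes, and the summed level was 5914 and 5528 CPM (-0.10, -0.11 to -0.09). Ifi27l2a (1291 and 1319 CPM) and Samhd1 (808 and 759 CPM) were the largest parts of that sum. The 4 genes that were higher were Oas1a, Mx2, Xaf1 and Ifi27l2a. No gene was lower by at least 1.5 times, as 2.26% of all genes were, and 1, Oas1a, was higher by at least 1.5 times, as 5.89% of all genes were. The lowest ratios were those of Oas1g (-0.36, -0.43 to -0.30), Ifit3b (-0.35, -0.54 to -0.17), Ifit3 (-0.32, -0.42 to -0.22) and Zbp1 (-0.29, -0.34 to -0.24). All 4 IFIT genes were lower, with a median of -0.30, as were all 5 sensors, with a median of -0.11. These sums mix cell types: neutrophils, the class with the highest core level, made up more of the agonist cells (2373 of 11183 against 1955 of 10299). The classes are therefore taken in turn.

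**Figure D2:**
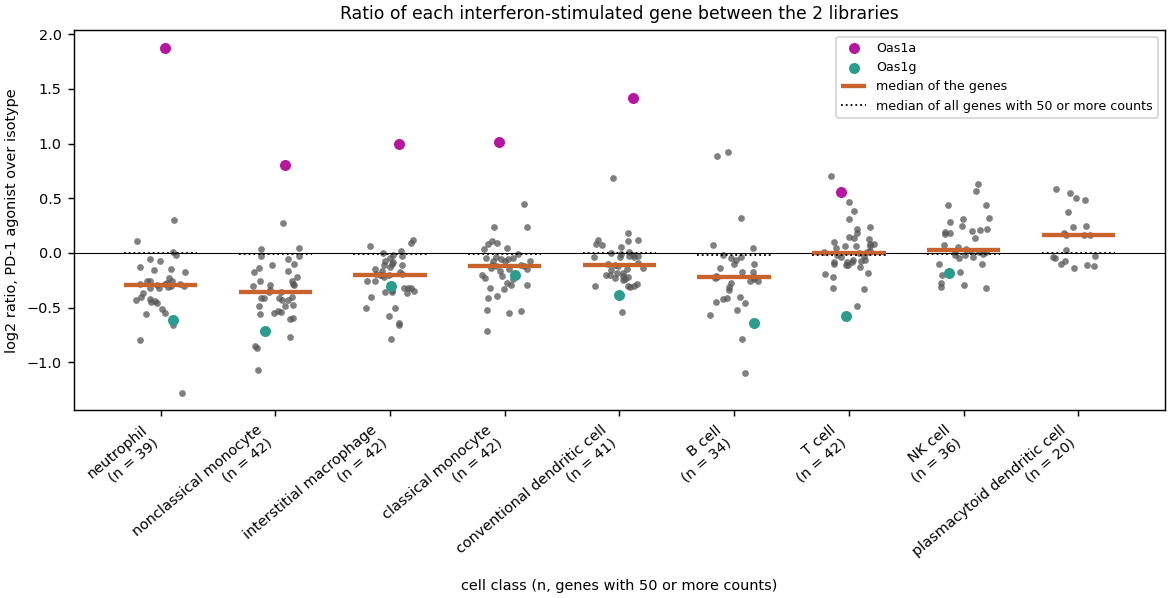
The log2 ratio of agonist over isotype for each gene with at least 50 counts in a class (points), the median of these genes (orange bar) and the median of all genes with at least 50 counts (dotted). The median of the genes lies at -0.29 in neutrophils, 0.0013 in T cells and 0.16 in plasmacytoid dendritic cells, and Oas1a lies above all other genes in the 5 myeloid classes plotted.

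Neutrophils, the class with the highest core level in CPM, had lower levels in the agonist library for 35 of the 39 genes with enough counts. Of all genes, 49.6% were lower. Mx1, Mx2, Phf11d and Ifi44 had too few counts. The median ratio was -0.29 against 0.0035 over all genes, and the core sum was 5576 CPM (5502 to 5650.5) in the isotype and 4409 CPM (4345 to 4475) in the agonist library, a ratio of -0.34 (-0.37 to -0.31). At least 1.5 times lower were 4 genes, where 4.68% of all genes were: Ifih1 with 356 and 211 counts, -0.79 (-1.05 to -0.55), Pml with 52 and 22 counts, -1.28 (-2.07 to -0.54), Oas1g with 668 and 450 counts, -0.61 (-0.79 to -0.44), and Usp18 with 355 and 231 counts, -0.66 (-0.91 to -0.42). The effector genes with the most counts were closer to 0. Rsad2 was at -0.42 (-0.49 to -0.35), Ifit1 at -0.40 (-0.51 to -0.30), Isg15 at -0.26 (-0.32 to -0.19) and Oasl2 at -0.31 (-0.39 to -0.23). All 4 IFIT genes were lower, with a median of -0.45, and all 4 genes of signalling and transcription, with a median of -0.33. The exceptions were Oas1a (1.88, 1.203 to 2.61), Lgals3bp (0.30, -0.11 to 0.72), Ifi27l2a (0.11, 0.06 to 0.16) and Xaf1 (0.01, -0.18 to 0.20), of which Oas1a is higher by at least 1.5 times, as 5.74% of all genes were. The plot of neutrophil ratios shows a wide spread of the low-count genes and narrow intervals for the effector genes.

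**Figure D3:**
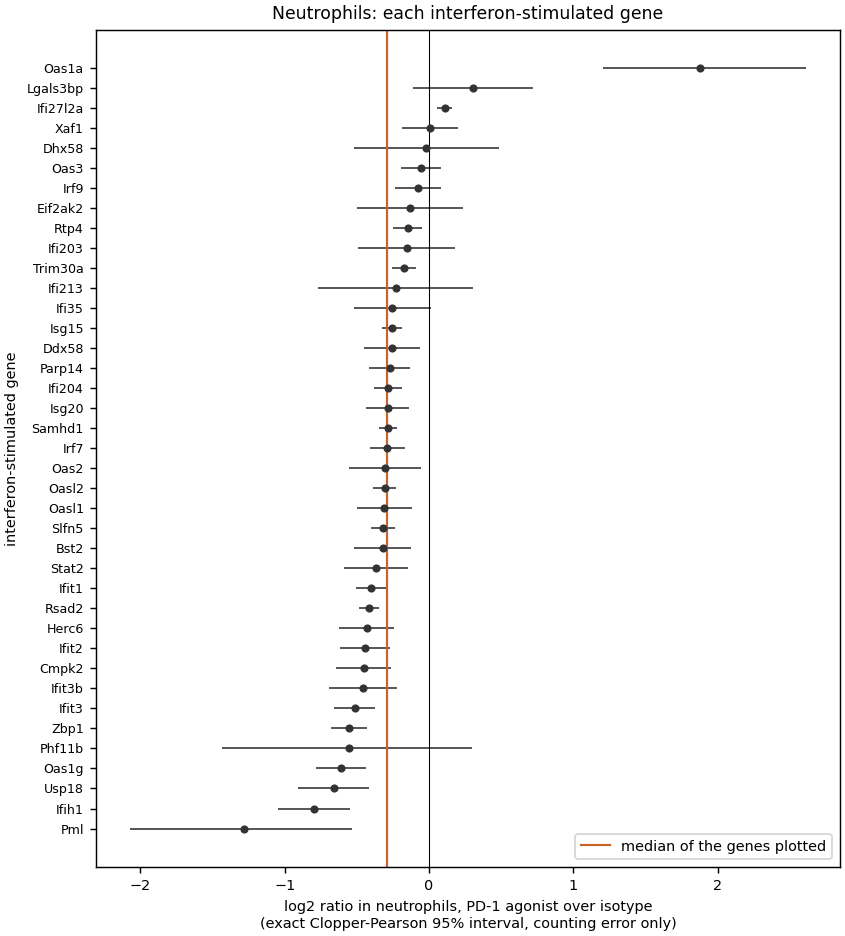
The log2 ratio of agonist over isotype in neutrophils for the 39 genes with at least 50 counts, sorted, with exact Clopper-Pearson 95% intervals for counting error. The orange line is their median of -0.29, and 35 of the points lie below 0.

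Neutrophils formed 4 clusters that differed in these genes and in their shares of each library. The cluster led by Retnlg, S100a9 and S100a8, with 1078 and 1599 cells, had a core sum of 3613 and 2903 CPM (-0.32, -0.36 to -0.27), and 30 of 34 genes were lower (43.9% of all genes). The cluster led by Il1a, Cxcl2 and Acod1, with 617 and 507 cells, had the highest core sum of any cluster, 8899 and 7554 CPM (-0.24, -0.28 to -0.19), and 29 of 35 genes were lower (54.4% of all genes). So the agonist library held more cells of the cluster with less of these genes, and fewer of that with more. A small cluster led by the granule genes Ngp, Camp and Ltf, with 36 and 34 cells, was at 2276 and 1510.0 CPM (-0.59, -0.81 to -0.38). The cluster led by Rab15, Fnip2 and Itpr2, with 224 and 233 cells, went the other way, at 5893 and 6627 CPM (0.17, 0.10 to 0.24), with 27 of 33 genes higher (51.8% of all genes). Other markers differed with it: the 12 interstitial macrophage markers summed to 778 and 1306 CPM there (9 higher, 2 at 0 in each library), the 11 B cell markers to 64.3 and 166 CPM (10 higher, none at 0), and the 5 abundant neutrophil transcripts to 19606 and 14096 CPM (0 higher). Their part in the result was not tested. With the clusters given the same weight in both libraries, the core ratio in neutrophils was -0.21 and the median of the genes -0.15, with 33 of 39 lower. The summed ratio of all 43 genes was -0.25 over all neutrophils, -0.07 without the Retnlg cluster, -0.15 without the Il1a cluster and -0.33 without the Rab15 cluster. The 5 abundant neutrophil transcripts, a set list of S100a8, S100a9, Retnlg, Lcn2 and Il1b, summed to 97369 and 120246 CPM in the class. They take a share of its total, and their part in the result was not tested.

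Single cells varied. When each cell was thinned to 1000 counts, 55.4% of isotype neutrophils (53.1% to 57.7%, exact binomial, 1006 of 1815 cells) and 47.3% of agonist neutrophils (45.1% to 49.4%, 1012 of 2141) had at least 3 counts of core genes. Without thinning the shares were 69.9% and 59.7%, and 140 and 232 cells were too shallow to enter. At 2000 counts, a depth that 554 and 456 neutrophils reached, the shares were 80.7% and 77.4%. The 10% of neutrophils richest in them held 40.6% and 43.3% of the core counts at 1000. By cluster the share at 1000 counts was 74.6% and 70.7% in the Il1a cluster and 44.5% and 37.7% in the Retnlg cluster. In other classes it was 32.6% and 23.7% of nonclassical monocytes, 25.2% and 20.3% of interstitial macrophages, 7.23% and 5.94% of T cells, and 1.72% and 1.31% of B cells. The interval of a share counts cells and not mice.

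In monocytes and macrophages the genes were mostly lower in the agonist library. Over these classes together 40 of 43 genes were lower, where 51.6% of all genes were, and the core sum was 2185 and 1799 CPM (-0.28, -0.31 to -0.25). Interstitial macrophages, the tissue macrophages of the lung wall, had 37 of 42 genes lower and 5 higher (51.3% and 48.7% of all genes), a median of -0.20 and a core ratio of -0.30 (-0.34 to -0.26). There 3 genes were at least 1.5 times lower (2.69% of all genes): Cmpk2 with 163 and 85 counts, -0.79 (-1.18 to -0.40), Ifit1 with 367 and 211 counts, -0.65 (-0.90 to -0.40), and Ifit3b with 44 and 25 counts, -0.66 (-1.43 to 0.08). Oas1a was the 1 gene at least 1.5 times higher (0.99, 0.64 to 1.35, 5.57% of all genes). The 5 abundant neutrophil transcripts summed to 2553 and 3311 CPM in this class, and their part in these ratios was not tested. Classical monocytes, the inflammatory monocytes of the blood, had 33 of 42 genes lower (53% of all genes), a median of -0.12 and a core ratio of -0.20 (-0.26 to -0.14). Rsad2 had the lowest ratio among them, with 166 and 101 CPM (-0.71, -0.96 to -0.47), the 1 of 42 genes at least 1.5 times lower (3.69% of all genes, so the share was no larger than in the background). Oas1a was the 1 gene at least 1.5 times higher (1.02, 0.51 to 1.55, 5.18% of all genes). With all barcodes kept, or with these genes allowed to define clusters, the core ratio of classical monocytes was 0.05 and 0.04, so its direction depended on these choices.

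Nonclassical monocytes, which patrol the vessel wall, had the lowest median of the larger classes, -0.36, with 38 of 42 genes lower and 4 higher (51% and 49% of all genes) and a core ratio of -0.39 (-0.45 to -0.34). At least 1.5 times lower were 7 (4.9% of all genes), among them Oas1g (-0.71, -0.91 to -0.52), Ifit3b (-1.07, -1.67 to -0.49), Usp18 (-0.85, -1.28 to -0.43), Ifi213 (-0.77, -1.17 to -0.38) and Ifit1 (-0.60, -0.83 to -0.36). Oas1a was higher by at least 1.5 times (0.80, 0.20 to 1.43, 5.45% of all genes). This class was made of 2 clusters with different levels. The cluster led by Ace, Adgre4 and Slc12a2, with 263 and 410 cells, had a core sum of 1394 and 1134 CPM (-0.30, -0.41 to -0.19). Its other cluster, led by Ace, Ceacam1 and Adgre4, with 231 and 185 cells, had 3891 and 3711 CPM (-0.07, -0.13 to -0.01), and it also held the 5 abundant neutrophil transcripts at 16061 and 20129 CPM, against 1032 and 1214 in the first. All 14 neutrophil markers were detected in it in both libraries, as they also were in the interstitial macrophage cluster. They summed to 24544 and 29074 CPM in it, against 3177 and 3942 CPM in interstitial macrophages. The part of these markers in the core level of the nonclassical cluster was not tested. That cluster held more of the class in the isotype library than in the agonist library. With both clusters weighted equally in the libraries, the core ratio was -0.13 and the median -0.18 (30 of 42 lower), and without the cluster rich in neutrophil transcripts the core ratio was -0.32.

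T cells, which carry PD-1 when activated, had as many genes higher as lower. Of 42 genes, 21 were lower and 21 higher, where 53.2% of all genes were lower, so their share was close to that background. The median ratio was 0.0013, and the core sum was 677 and 655 CPM (-0.05, -0.10 to 0.01). Oasl1 was the 1 gene at least 1.5 times apart, with 54 and 72 counts (0.71, 0.18 to 1.24), where 5.01% of all genes were as much higher. No gene was lower by that much, as 2.82% of all genes were. The balance covered clusters that went in opposite directions. In the cluster led by Cd8a, Cd8b1 and Cd3d (351 and 259 cells) the core sum was 512 and 741 CPM (0.54, 0.39 to 0.68), and 26 of 29 genes were higher (46% of all genes). In the cluster led by Ccl1, Ifng, Cxcr6 and Pdcd1, the gene of PD-1 (218 and 121 cells), it was 1039 and 686 CPM (-0.60, -0.79 to -0.41), and 23 of 25 were lower (56.4% of all genes). The difference between these clusters was not tested. Regulatory T cells had a core sum of 1086 and 1028 CPM (-0.08, -0.29 to 0.13), and other CD4 T cells 735 and 722 CPM (-0.02, -0.14 to 0.09). Both values mix unlike clusters. The larger regulatory cluster was at 1281 and 1227 CPM and the smaller at 413 and 232 CPM, while the CD4 clusters led by Icos and by Igfbp4 were at 1279.9 and 1264 CPM and at 422 and 460.0 CPM. The cluster led by Lef1 (380 and 487 cells), with Cd8b1 and Cd8a among its leading genes, was at 342 and 361 CPM. It did not meet the threshold for a subtype name, so the CD8 values below leave it out. CD8 T cells were at 677 and 708 CPM (0.06, -0.05 to 0.17), and their core ratio was -0.18 without the second of the agonist tables. This value also mixes unlike clusters. The CD8 class holds the Cd8a cluster (0.54), the Ccl1 cluster with Pdcd1 (-0.60) and a small cluster led by Cx3cr1 (-0.43, -1.20 to 0.32). In the CD8 class as a whole, Eif2ak2 (0.85, 0.36 to 1.34), Rsad2 (0.76, 0.18 to 1.35) and Stat2 (0.59, 0.11 to 1.08) were at least 1.5 times higher, as were 5.04% of all genes. When each table was left out, they ranged from 0.48 to 0.96, 0.31 to 0.93 and 0.19 to 0.80, each under 1.5 times at its lower end. Of the Rsad2 counts there, 11.8% and 24.5% lay in 1 cell of each library. Gamma-delta T cells were at 1098 and 921 CPM (-0.25, -0.47 to -0.03), with Ifi203 at -0.59 (-0.94 to -0.24), the 1 gene lower by at least 1.5 times (4.88% of all genes). That core ratio turned to 0.03 with doublets kept. The class is the cluster led by Rora, Pxdc1 and Cxcr6 alone. A cluster led by Xcl1, Ikzf2 and Trdc, with further gamma-delta receptor genes among its leading genes, did not meet the threshold for a subtype name and was at 566 and 576 CPM (0.02, -0.16 to 0.21).

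**Figure D4:**
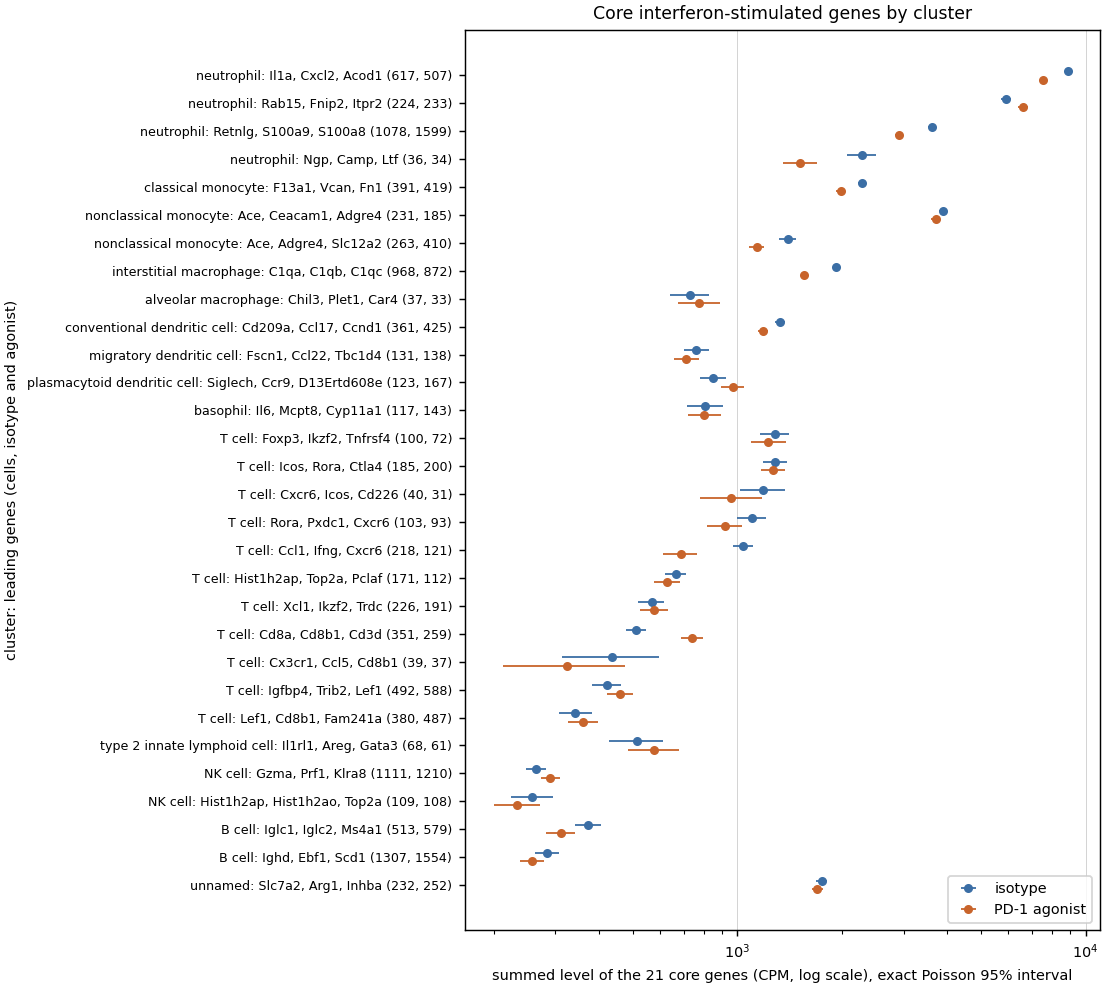
Summed level of the 21 core genes in each cluster with at least 30 cells per library, on a log axis in CPM with exact Poisson 95% intervals, for the isotype library (blue) and the PD-1 agonist library (orange). Rows give the class, leading genes and cell numbers of the cluster. The neutrophil cluster led by Il1a is at 8899 and 7554 CPM, and the T cell cluster led by Cd8a has a log2 ratio of 0.54.

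B cells had low levels that were mostly lower in the agonist library, with 29 of 34 genes lower (52.5% of all genes), a median of -0.22 and a core ratio of -0.20 (-0.32 to -0.08). Rsad2 with 70 and 35 counts (-1.10, -1.73 to -0.49), Oasl2 with 66 and 41 (-0.79, -1.38 to -0.20) and Oas1g with 67 and 46 (-0.64, -1.21 to -0.08) were at least 1.5 times lower (2.76% of all genes). Oasl1 with 41 and 83 counts (0.92, 0.36 to 1.496) and Isg15 with 38 and 75 (0.88, 0.30 to 1.49) were higher (4.67% of all genes). With the counts of Oas1a added, the ratio of the pair was -0.49 (-1.03 to 0.04), under 1.5 times and with an interval that includes 0. A single agonist cell held 38.7% of the Isg15 counts, and with doublets kept the ratio was -0.30. Pml, at its highest in B cells, was at 126 and 109 CPM (-0.22, -0.41 to -0.02). The 5 abundant neutrophil transcripts summed to 133 and 225 CPM in B cells, and their part in these ratios was not tested. NK cells, whose core sum was low like that of B cells, had 22 of 36 genes higher (47.6% of all genes), a median of 0.03 and a core ratio of 0.09 (-0.03 to 0.21). Mx1 had 26 and 39 counts there (0.63, -0.12 to 1.41), the 1 gene apart by at least 1.5 times (5.06% of all genes were as much higher), with an interval that includes 0. No gene was as much lower there, as 2.68% of all genes were.

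Plasmacytoid dendritic cells were the 1 class whose core sum was higher in the agonist library with an interval clear of 0, at 849 and 969 CPM (0.19, 0.03 to 0.36). In them 12 of 20 genes were higher (50.6% of all genes), a share little above that background, with a median of 0.16. Stat2 was at 161 and 229 CPM (0.51, 0.14 to 0.88), Oasl2 at 103 and 144 (0.48, 0.02 to 0.95) and Irf7 at 239 and 267 (0.16, -0.15 to 0.48). Bst2 was nearly level (-0.04, -0.13 to 0.05). Parp14 was the 1 gene at least 1.5 times higher, with 30 and 54 counts (0.59, -0.08 to 1.28), where 6.67% of all genes were, and none was as much lower (4.18% of all genes). Conventional dendritic cells had 31 of 41 genes lower (50.6% of all genes), a median of -0.11 and a core ratio of -0.16 (-0.23 to -0.09). Oas1a (1.42, 0.73 to 2.15) and Ifit3 (0.69, 0.14 to 1.26) were at least 1.5 times higher (5.58% of all genes), and none was as much lower (3.04% of all genes). Migratory dendritic cells had 17 of 22 lower (53.1% of all genes), and a core ratio of -0.10 (-0.26 to 0.07). Irf9 was the 1 gene at least 1.5 times lower there (-0.69, -1.23 to -0.15, 6.1% of all genes), and none was as much higher (7.45% of all genes).

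The smallest classes had few genes with enough counts. Basophils had 9 genes with enough counts, 6 higher and 3 lower (49.8% and 50.2% of all genes). Isg20 was at least 1.5 times higher (0.66, -0.13 to 1.498, 9.2% of all genes) and Bst2 lower (-0.65, -1.50 to 0.18, 6.9% of all genes), both with intervals that include 0. Type 2 innate lymphoid cells had 7 such genes, with Samhd1 at -1.03 (-1.30 to -0.77) and Ifi27l2a at 1.39 (0.85 to 1.95), the latter with 37.5% and 62.0% of its counts in 1 cell of each library. Their neutrophil transcripts went from 66.3 to 720.4 CPM, and the part of that in these ratios was not tested. In this class 10.7% and 8.73% of all genes were at least 1.5 times higher and lower. Alveolar macrophages had 10 such genes, 5 higher and 5 lower (52.8% of all genes), a share close to that background, and none of them was at least 1.5 times apart (as 8.5% of all genes were higher and 8.2% lower). The unnamed cells, mostly a cluster led by Slc7a2, Arg1 and Inhba, had a core sum of 1659 and 1616 CPM (-0.04, -0.11 to 0.04), with 24 of 41 genes lower (52.2% of all genes). Oas2 (-1.25, -2.23 to -0.34) and Mx1 (-0.93, -1.72 to -0.16) were at least 1.5 times lower there (3.47% of all genes), and Oas1a (1.34, 0.71 to 1.996), Cmpk2 (0.63, 0.02 to 1.26) and Pml (0.69, -0.06 to 1.47) higher (5.55% of all genes). Cmpk2 there was at -0.18 with doublets kept and ranged from 0.07 to 1.33 when each table was left out.

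Oas1a was higher in the agonist library in each of the 5 larger myeloid classes, and its near-identical neighbour Oas1g was lower. Oas1a lies at chr5:120896256-120907521 and Oas1g at chr5:120876142-120887613, both on the reverse strand of GRCm38. They share 68.8% and 65.4% of their transcript sequence with other genes, mostly each other, and the same promoter stretch printed above. Over all cells Oas1a had 315 and 682 counts (1.17, 0.98 to 1.37), and Oas1g 4481 and 3346 (-0.36, -0.43 to -0.30). Added up they had 4796 and 4028 counts, a ratio of -0.19 (-0.25 to -0.13). In neutrophils the ratio was 1.88 for Oas1a and -0.61 for Oas1g, and -0.40 (-0.57 to -0.24) for the sum. The summed ratio was -0.56 (-0.74 to -0.37) in nonclassical monocytes, -0.16 (-0.27 to -0.05) in interstitial macrophages, -0.06 (-0.23 to 0.10) in classical monocytes and -0.19 (-0.39 to 0.01) in conventional dendritic cells. So the sum was lower or within counting error of no change where Oas1a alone was higher, and in none of these classes was it 1.5 times lower, as Oas1g alone was in neutrophils and nonclassical monocytes. No source used here gives how the authors assigned reads to near-identical genes, and the ratio of Oas1a alone is uncertain. Ifit3 and Ifit3b had a summed ratio of -0.50 in neutrophils and -0.53 in interstitial macrophages, but 0.50 (0.01 to 1.01) in conventional dendritic cells, where Ifit3 had 43 and 79 counts and Ifit3b 14 and 13.

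**Figure D5:**
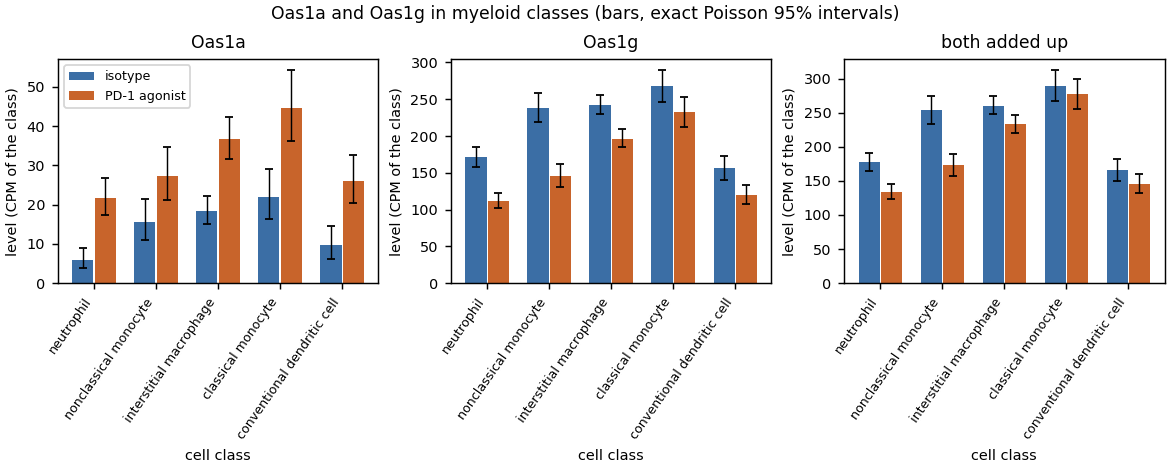
Levels in CPM of Oas1a, of Oas1g and of both added up in 5 myeloid classes, with exact Poisson 95% intervals, for the isotype library (blue) and the PD-1 agonist library (orange). Each bar starts at 0 and the panels have different scales. Oas1a is higher and Oas1g lower in the agonist library in each class, and the sum is lower, with a log2 ratio of -0.40 in neutrophils.

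The rest of the pathway was read from a list of 47 genes, of which 28 have a column in the tables. Over all cells 20 of 27 with enough counts were lower and 7 higher, with a median of -0.08, where 50.8% of all genes were lower and 49.2% higher and their median was -0.0034. Interferon alpha genes were on that list, and no value for them is given here. Ifnb1, the gene of interferon beta, had 5 and 0 counts, all in interstitial macrophages. The receptor genes Ifnar1 (105 and 109 CPM, ratio 0.05, -0.01 to 0.12) and Ifnar2 (66.0 and 60.9 CPM, ratio -0.12, -0.20 to -0.03) and the kinase genes Jak1 (411 and 439 CPM, ratio 0.09, 0.06 to 0.13) and Tyk2 (37.4 and 38.2 CPM, ratio 0.03, -0.08 to 0.14) had ratios close to 0. Irf1, an early target of interferon gamma, was lower (304 and 252 CPM, ratio -0.27, -0.31 to -0.23). In neutrophils Irf1 was at 889 and 629 CPM (ratio -0.50, -0.57 to -0.43), the kinase gene Ikbke at 77.6 and 44.6 CPM (ratio -0.80, -1.07 to -0.53) and the feedback inhibitor Socs1 at 140.2 and 96.9 CPM (ratio -0.53, -0.72 to -0.34). Ifng, the gene of type II interferon, had 1866 and 1134 counts (-0.66, -0.77 to -0.55), and 1 isotype cell held 14.4% of them. The T cell cluster led by Ccl1, Ifng and Cxcr6 had 218 and 121 cells. Fewer such cells and less Ifng per cell cannot be told apart in this ratio. Like the sums above, the ratios over all cells given here and below mix cell types, and the part of that mix was not tested.

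Of the sensors and adaptors that lead to interferon production, the RNA receptor gene Tlr7 was higher over all cells (28.4 and 34.5 CPM, ratio 0.28, 0.16 to 0.40). The others were Tlr3 at -0.20, Tlr9 at -0.42, Unc93b1 at -0.05, Myd88 at -0.05, Ticam1 at -0.07, Cgas at -0.11, Tmem173 at -0.14, Mavs at -0.13, Tbk1 at -0.03 and Ikbke at -0.33. Among these the interval of Ikbke lay clear of 0 (-0.44 to -0.22), as did that of Tmem173, the gene of STING (-0.22 to -0.06), and Unc93b1 (-0.09 to -0.01). The other regulatory factors Irf3 (-0.12), Irf5 (-0.06) and Irf8 (0.04), the nuclease gene Trex1 (-0.08) and the RNA editor gene Adar (0.0015) had ratios close to 0. The feedback inhibitors Socs1 and Socs3 were at -0.21 and -0.08, and the interferon gamma receptor genes Ifngr1 and Ifngr2 at 0.05 and -0.18.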

How the data were processed

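Lung CD45+ cells were profiled on the 10x Genomics platform. The deposited tables hold, per the file headers, 1 record per cell with estimated counts per gene, a few of them not whole, and the authors' total count, number of genes with a count and percent of mitochondrial and ribosomal reads per cell. Partek and the mm10 assembly are named in the submitters' processing notes, and no source used here names the aligner or the counting method. The 43 genes, the core and the other lists were chosen with earlier results of these data known.

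Each barcode was kept once per treatment, in its record with the highest total. Cells with an entry in the authors' CD3e column were taken as having passed the authors' own filter (11106 isotype and 12216 agonist cells, with 500 to 4000 genes), and Scrublet removed 807 and 1033 of them at a score of 0.25 and an expected rate of 0.1. Cells were clustered with scanpy 1.11.5 on 2000 variable genes without these genes, other interferon-inducible families, mitochondrial and ribosomal genes, with 30 principal components, 15 neighbours and Leiden (leidenalg 0.10.2) at resolution 1, and T cells were clustered again. Clusters were named from marker lists, with thresholds chosen after the clusters had been seen. Estimated counts were summed per class and then rounded. Library totals were multiplied by TMM factors, the only use made of edgeR (4.0.16), and no test was made. Genes with at least 50 counts entered comparisons, and 1.5-fold was the size at which genes are named, up to 5 per class and direction. All 43 genes are named with their levels, the 12 with the most counts in every class, and the others in their highest and lowest class. Transcript sequence was called shared where a stretch of 31 bases also occurs in another gene. The total count per table was 21556544 to 29749816, and counting error is the precision this depth gives. Alternatives were scaling without TMM, no doublet removal, all barcodes, another resolution, these genes allowed to define clusters, no minimum count, the record with the lowest total for a shared barcode, each gene without its top cell, genes with little shared sequence, another depth of thinning, other spellings of the promoter element and leaving out each table. Equal weights of clusters, leaving out clusters and adding near-identical genes were chosen after seeing the data. An item of the pathway list is not reported here by name.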

Additional observations from a re-analysis of the deposited data

Results flagged for a closer look

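Plasmacytoid dendritic cells had a core ratio of 0.19, opposite in sign to 6 classes whose intervals lay below 0: neutrophils, both monocyte classes, interstitial macrophages, conventional dendritic cells and B cells. The difference between the classes was not tested. The core ratio in plasmacytoid dendritic cells ranged from 0.087 to 0.32 when each table was left out.

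Within T cells, the cluster led by Cd8a, Cd8b1 and Cd3d had a core ratio of 0.54, while the clusters led by Ccl1, Ifng and Cxcr6 and by Rora, Pxdc1 and Cxcr6, the latter gamma-delta T cells, had -0.60 and -0.25. In the Cd8a cluster Isg15 was at 40.2 and 64.2 CPM and Rsad2 at 12.4 and 26.8 CPM, with no minimum count applied to these levels. Rsad2 had 51 and 53 counts in the whole CD8 class, and 1 cell of each library held 11.8% and 24.5% of them. The differences between these clusters were not tested.

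Within neutrophils, the cluster led by Rab15, Fnip2 and Itpr2 had a core ratio of 0.17, against -0.32 in the Retnlg cluster, -0.24 in the Il1a cluster and -0.59 in the Ngp cluster. In the Rab15 cluster Isg15 was at 938 and 1058 CPM and Rsad2 at 1212 and 1360.2 CPM. These differences were not tested either.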

How the results depend on the processing

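The summed ratio of all 43 genes was -0.10 over all cells, -0.25 in neutrophils, -0.12 in monocytes and macrophages, -0.11 in B cells and -0.01 in T cells. Scaling without TMM gave -0.12 over all cells and -0.30 in neutrophils. All distinct barcodes gave -0.12 over all cells, 0.018 in T cells and -0.14 in monocytes and macrophages. The genes with under 10% shared sequence gave -0.078 over all cells and -0.089 in monocytes and macrophages. Clusters weighted equally, chosen after seeing the data, gave -0.17 in neutrophils and -0.10 in monocytes and macrophages. Neutrophils without the Retnlg, Il1a or Rab15 cluster, also chosen after seeing the data, were at -0.071, -0.15 and -0.33. The cause of these shifts was not tested.

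When each table was left out in turn, the summed ratio ranged from -0.11 to -0.092 over all cells, -0.28 to -0.21 in neutrophils, -0.14 to -0.11 in monocytes and macrophages, -0.15 to -0.068 in B cells and -0.050 to 0.039 in T cells. The number of the 13 classes with a median below 0 ranged from 8 to 11, as did that of classes with a lower summed level. The core ratio of CD8 T cells ranged from -0.18 to 0.17, below 0 without the second of the agonist tables, and that of basophils from -0.25 to 0.47, with the sign depending on the table left out. That also held for alveolar macrophages (-0.051 to 0.30), type 2 innate lymphoid cells (-0.031 to 0.63) and unnamed cells (-0.16 to 0.14).

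Among ratios with an interval clear of 0, direction changed for the core ratio of gamma-delta T cells. It went to 0.034 with doublets kept and 0.073 with these genes allowed to define clusters. Direction also changed for classical monocytes, to 0.053 with all barcodes and 0.043 with these genes defining clusters. With doublets kept, Isg15 in B cells was at -0.30 and Cmpk2 in unnamed cells at -0.18. With the counts of Oas1g added, Oas1a went to -0.19 over all cells, -0.40 in neutrophils, -0.56 in nonclassical and -0.064 in classical monocytes, -0.16 in interstitial macrophages, -0.21 in monocytes and macrophages together, -0.19 in conventional dendritic cells and -0.066 in unnamed cells. The share of cells with several core member counts, thinned, here of neutrophils with at least 3, differed by -8.16 points between the libraries at 1000 counts and -3.27 points at 2000. The stricter spelling of the promoter element was in 9 promoters. Of the ratios of single genes under an alternative, 613 stayed within the counting interval of the reported ratio, 14 lay outside it and 10 changed direction. Core ratios per class moved more often, with 276 inside the interval, 47 outside it and 4 changed in direction. A change of direction was counted only where the interval of the reported ratio excluded 0. Changes of sign of other ratios are among those counted inside or outside the interval. Of the summed ratios, class counts, the thinned share and the promoter count, 94 stayed close and 24 moved.

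No paired analysis was possible because the tables numbered 1 to 3 of a treatment share cells of 1 pool and no test was made. With 1 pooled sample a treatment, no spread between mice is known, and small classes are limited by counts.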

Other observations

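The summed level of the core genes, in isotype and agonist library in turn, differed among the T cell clusters. The cluster led by Icos, Rora and Ctla4, CD4 T cells whose leading genes include the cytokine gene Il17a, was at 1279.9 and 1264 CPM. The larger regulatory T cell cluster, led by Foxp3, Ikzf2 and Tnfrsf4, was at 1281 and 1227 CPM, and the smaller one, led by Gpr83, Ikzf2 and Foxp3, at 413 and 232 CPM. The gamma-delta cluster led by Rora, Pxdc1 and Cxcr6 was at 1098 and 921 CPM, while a cluster led by Xcl1, Ikzf2 and Trdc was at 566 and 576 CPM. The CD8 cluster led by Cx3cr1, Ccl5 and Cd8b1 was at 437 and 324 CPM. Dividing T cells, led by Hist1h2ap and Top2a, were at 664 and 628 CPM.

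B cells led by Ighd and Ebf1 were at 284 and 256.5 CPM and those led by Iglc1 and Iglc2 at 373 and 311 CPM. The cluster of dividing cells placed with NK cells was at 257 and 233 CPM and the other NK cells at 264 and 290.2 CPM, so these core genes were low in both. The unnamed cluster led by Slc7a2, Arg1 and Inhba was at 1747 and 1697 CPM, and it also held the chemokine genes Ccl2 and Ccl7 among its leading genes.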
